A study of Mus musculus with 4 samples.

Results

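MyoD peaks that were called in both culture conditions and that lay inside gene bodies, away from every listed gene flank, are described here. A peak was taken when it overlapped a peak of the other list by at least 1 base, was paired with at least 1 gene, and in neither list touched a 2000-base flank of any gene. Pairs in which both peaks were 400 bases or wider were left out, so the members were chosen by measured values, namely their overlap, their place and their width. This gave 4066 pairs, made of 4048 peaks of the list whose title says with pyruvate (11907 peaks in all) and 4053 of the list whose title says without (19338 in all). Peaks that overlapped each other were joined into 4035 loci, of which 4004 were 1 peak against 1 peak. Among all 8592 overlapping pairs of the series, a further 348 lay only in gene bodies but were wide in both lists, 882 touched a flank and 2972 lay outside all listed gene regions, both of the last with the same width limit.

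MyoD is a basic helix-loop-helix transcription factor that, paired with an E protein, binds short DNA motifs called E-boxes. It switches on genes of the muscle programme together with myogenin and the MEF2 factors. In muscle cells it is known to occupy very many sites, most of them away from promoters, inside genes or between them, and only some of these sites are known to act as enhancers.

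The samples were 4: 1 MyoD ChIP library and 1 input from myotubes given pyruvate, and the same pair from myotubes kept without it. All came from primary myoblasts of C57BL/6 mice 2 weeks old, grown in 20% fetal bovine serum, differentiated for 5 days in 2% horse serum, and then kept for 24 hours in differentiation medium with or without pyruvate, the end product of glycolysis. Both ChIP libraries used the antibody SC-760, and the inputs were not analysed here. No genotype other than the strain is given, and whether the cells of each library came from 1 mouse or several is not given in the sources used here.

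Each condition was 1 library, so no comparison between conditions could be tested and none carries a p-value. Shares carry 95% exact (Clopper-Pearson) intervals, which cover counting error only. Read depth is unknown, and the columns for fold enrichment held only 0 or a dash, so width (end minus start, in bases) was the only value per peak. Which list stands for which condition rests on the sample titles alone, and the names of the 2 deposited files hold a short form that could be taken for the other condition. If the lists were exchanged, every direction given here between with and without pyruvate would turn round. Of all gene-body peaks, 71.5% of the list with pyruvate (4400 of 6153) and 46.2% of the list without (4416 of 9562) had a partner, beside 71.8% and 44.2% of all peaks; this sharing chose the members and is a description only.

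Being listed inside a gene did not always mean lying wholly inside it. Every locus had its centre in the body, but in 83 locus-gene combinations, 1.92% of all 4312, the locus also spanned the listed gene start, and in 10 it spanned the listed end. The locus at Pcx, which encodes pyruvate carboxylase, had its centre 24.5 bases from the start (chr19:4510368-4510636 of mm9 in the list with pyruvate). At Dag1, which encodes dystroglycan, the link from the cytoskeleton to the surrounding matrix, the centre was 165.5 bases from the start (chr9:108165930-108166351). Such loci are start-site loci by position. Whether the other loci lie in exons, introns or untranslated regions was not analysed here, and all coordinates are those of mm9 as deposited.

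The loci were spread over the whole length of genes, with more near the start than near the end. Position was measured from the listed start of each gene to the locus centre, following the strand, for the 4312 locus-gene combinations in 2667 genes. The median locus lay 46.5% of the way along a gene whose median length was 99.96 kb, 37.7 kb from the start. Of the combinations, 28.5% (27.2 to 29.9) lay in the first 25% of the gene, 24.95% (23.7 to 26.3) in the next, 23.7% (22.5 to 25.02) in the one after and 22.8% (21.5 to 24.1) in the last, where an even spread gives 25% each. Even spreads given here take no account of flanks of other genes that lie over a body. Stretches under such a flank could not hold a locus by the rule, and their effect on position was not tested. In steps of 10% of the gene, the first held 12.5% (538 combinations, 11.5 to 13.5) and the next 5 held between 9.95% and 10.6%. After these, in order, the steps held 8.74% (7.92 to 9.63), 9.02% (8.18 to 9.92), 9.83% (8.96 to 10.8) and, in the last, 8.67% (7.85 to 9.55). The first step was above an even share beyond counting error, and the last below it, as were the steps at 8.74% and 9.02%. These intervals treat combinations as independent, which loci of 1 gene are not. With 1 mean position per gene, 25.9% (24.3 to 27.7) of the 2667 genes fell in the first 25% and 10.9% (9.79 to 12.2) in the first 10%. Both intervals include an even share, though a mean over several loci is drawn towards the middle of the gene.

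**Figure D1:**
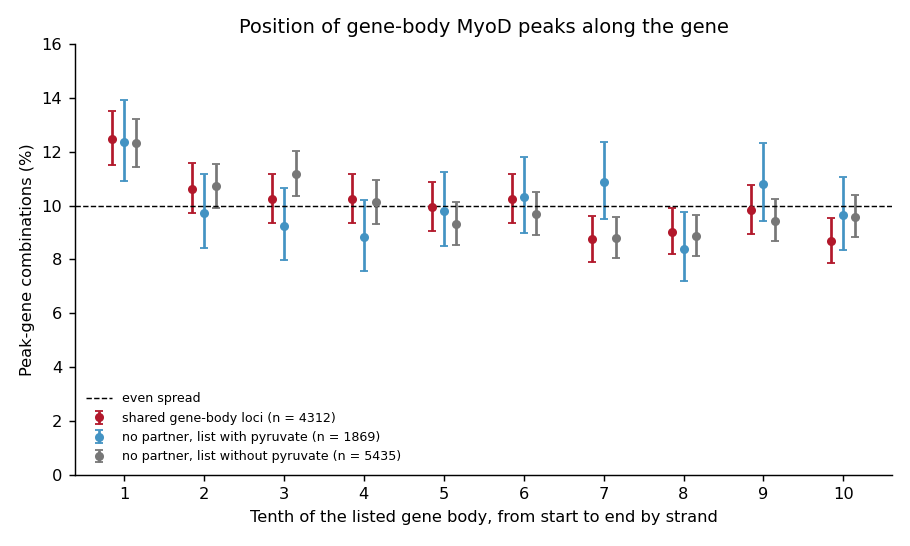
Share of peak-gene combinations (percent, vertical axis) in each step of 10% of the listed gene body, from start to end by strand (horizontal axis). Red points are the shared gene-body loci (n = 4312), blue and grey points are gene-body peaks with no partner in the other list, bars are 95% exact binomial intervals and the dashed line is an even spread. In all 3 sets the first step lies above the line, at 12.5% for the shared loci.

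In bases rather than in relative position, the excess sat close to the start. Within 500 bases of the start there were 152 combinations, within 500 bases of the end 52, and an even spread along the same genes gives 65. Within 1 kb of the start there were 227, or 5.26% (4.62 to 5.97), against 2.86% for an even spread and 2.32% (1.89 to 2.81) within 1 kb of the end. Within 10 kb the start held 23.2% (21.9 to 24.5) and the end 17.9% (16.7 to 19.1), with 20.7% for an even spread. Within 50 kb the start and end held 57.3% and 55.8%, and their intervals overlapped. When all combinations within 2 kb of either end were left out, the first 10% held 7.38% of the other 3849, beside 7.36% for an even spread of what remained, and the first 25% 24.3% (22.9 to 25.7) beside 22.9%.

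By the first 25% of the gene, the interval lay above an even share in the length classes under 50 kb and included it in the longer ones. In genes under 20 kb the first 25% held 34.3% of combinations (30.2 to 38.6), and in genes of 20 to 50 kb it held 32.2% (28.9 to 35.6). In genes of 50 to 100 kb and 100 to 200 kb the shares were 26.1% and 27.5%, and in genes of 200 to 500 kb the share was 25.1% (22.2 to 28.1). In genes over 500 kb it was 29.8% (24.8 to 35.3), from 94 genes. By the first 10%, the interval lay above an even share under 20 kb at 17.3% (14.1 to 20.8), at 20 to 50 kb at 14.3% (11.9 to 17.0), at 100 to 200 kb at 12.1% (10.1 to 14.2) and over 500 kb at 15.4% (11.5 to 20.0). Of the 47 combinations behind the last value, 15 were in Gm20388. Genes on the plus and minus strands held 29.9% and 27.1% of their combinations in the first 25%, with overlapping intervals. In the first 10% they held 13.6% (12.2 to 15.1) and 11.2% (9.91 to 12.7). Only the second of these intervals includes an even share, and Gm20388 is on the plus strand.

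Peaks without a partner leaned the same way. Gene-body peaks with no partner held 26.8% (24.8 to 28.8) of their combinations in the first 25% in the list with pyruvate and 28.9% (27.7 to 30.2) in the list without. Shared gene-body pairs that were wide in both lists held 28.6% (24.1 to 33.4), and the intervals of the 4 sets overlapped one another. Close to the start the wide pairs showed no excess: their first 10% held 8.73% (6.09 to 12.04), and within 1 kb of the start there were 2.38% (1.09 to 4.47), beside 2.28% for an even spread. In the unpartnered peaks 4.44% (3.55 to 5.48) with pyruvate and 5.46% (4.88 to 6.10) without lay within 1 kb of the start, beside 2.91% and 3.14%. The widths of the shared loci hardly varied along the gene, with medians per step of 10% between 248.5 and 265 bases in the list with pyruvate and between 268 and 285 bases in the list without.

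The 4035 loci fell in 2667 genes, 36.9% of the 7235 genes the files name and, for those in the RefSeq gene table, 10.8% of its protein-coding genes. Only 5774 of the genes named have a listed body, and the others, named through a flank alone, could not hold a locus. Of the 2667 genes, 1828 held 1 locus, 839 held at least 2, 391 held at least 3 and 94 held at least 5, the last being 1.3% of all genes named. Those 94 genes took 13.9% of all combinations when counted by symbol. Their median listed length was 213 kb, against 68.1 kb for all genes with a locus and 47.8 kb for all 5774 bodies listed. Over the 2667 genes the number of loci and the length had a Spearman rank correlation of 0.396, which is across genes and describes them only. Neighbouring loci of a gene lay a median of 17.8 kb apart (interquartile range 5.25 to 46.8 kb, 1634 gaps), and 24.3% of the gaps were 5 kb or less. In 197 of the genes a flank also held a peak in both lists.

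**Figure D2:**
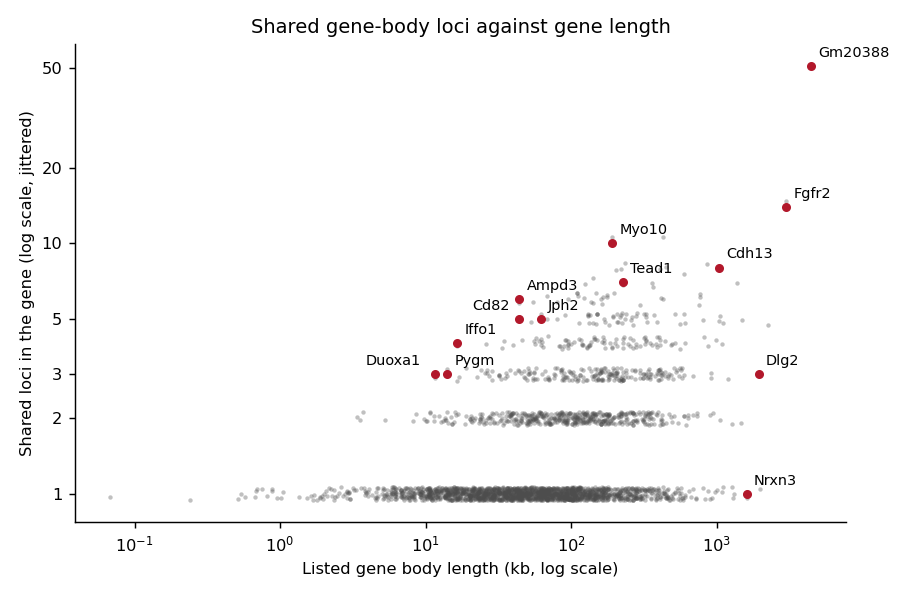
Number of shared gene-body loci in each gene (vertical axis, log scale, with a small random shift so that points do not overlap) against the listed length of its body in kb (horizontal axis, log scale). Each grey point is 1 of 2667 genes, and red points mark genes named in the text, at their exact values; Gm20388 with 51 loci and Fgfr2 with 14 lie at the far right, and Duoxa1, Pygm, Iffo1 and Ampd3 at the dense left edge.

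The 2 genes with the most loci had very long listed bodies that hold other genes, and it is doubtful that either body is a single gene, so their counts, densities and positions are those of the listed regions. Gm20388, a predicted gene listed at 4435 kb on chromosome 8, held 51 loci, 15 of them in its first 10%. The bodies of 27 other named genes lie inside it, and 25 of its loci were also listed in another gene, among them 1 in Cdh15, which encodes M-cadherin of muscle cells. Fgfr2, which encodes a fibroblast growth factor receptor, is listed at 3009 kb with 11 other bodies inside, and 12 of its 14 loci were also listed in another gene such as Ctbp2, Tacc2 or Htra1. Per 100 kb these genes held 1.15 and 0.465 loci, where the value over all listed bodies was 0.703.

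Myo10, which encodes the unconventional myosin X that carries cargo along filopodia, held 10 loci in 191 kb (chr15:25552280-25743428), or 5.23 per 100 kb, and none of them was shared with another gene. The first lay 0.219 kb from the start and was 268 bases wide with pyruvate and 238 without. Another 3 lay within the first 23.4 kb, and 5 lay between 54.7% and 79.9% of the way along. The last 4 formed close pairs, with centres at 139.4 and 139.9 kb and at 152.4 and 152.8 kb. Only 1 gene-body peak with pyruvate and 2 without in Myo10 had no partner.

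Other genes with 8 loci each placed them in different stretches. Cdh13, which encodes T-cadherin, had 5 of its 8 loci in the first 10% of a body of 1041 kb, the nearest 0.752 kb from the start. Dlgap1, which encodes a scaffold protein of synapses, had 7 of 8 between 77.6% and 96.8% of the way along its 852 kb. The 8 loci of St3gal3, a sialyltransferase gene, lay between 31.6% and 67.6%, and those of Akap6, which encodes an anchor for protein kinase A at the nuclear envelope and sarcoplasmic reticulum of muscle, between 18.1% and 55.7%. Ttc7b and Frmd4a also held 8, as did 2 genes without a symbol. In 1 of these, ENSMUSG00000033209, all 8 lay between 79.4% and 96.1%. Another gene without a symbol, ENSMUSG00000085936, held 11 loci, all between 17.3% and 65.7% of its 426 kb.

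**Figure D3:**
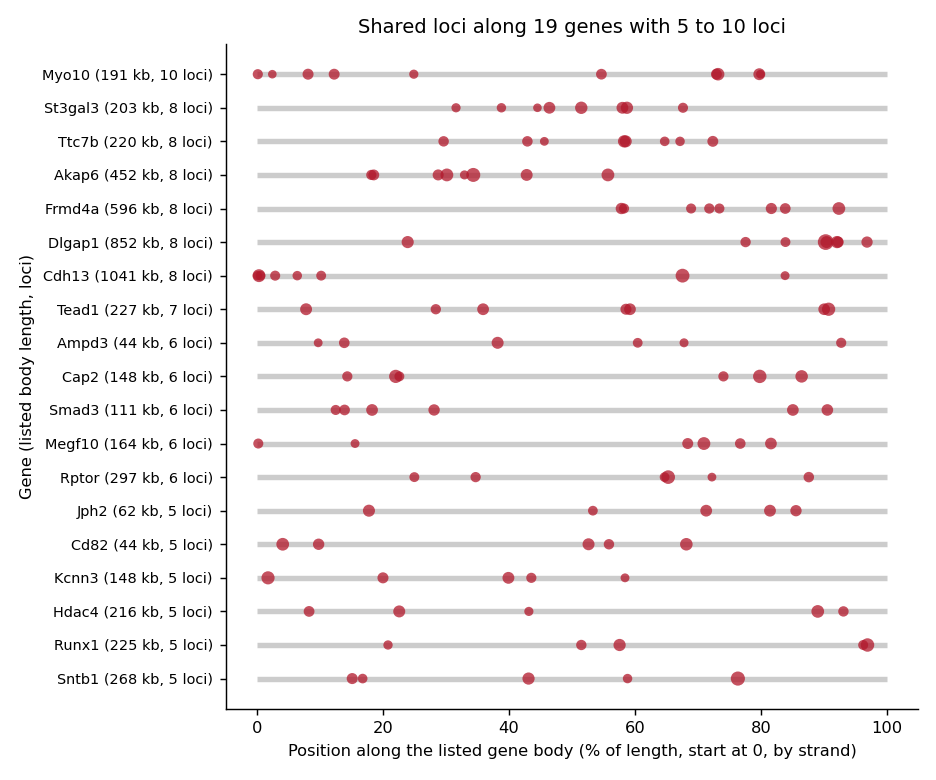
Position of each shared locus (points) along the listed gene body (grey bars, percent of length from the start by strand, horizontal axis) for 19 genes with 5 to 10 loci, with length and number of loci beside each name. Point area follows the mean of the 2 peak widths. The 8 loci of Cdh13 lie mostly at the start and those of Dlgap1 mostly near the end, while the 10 of Myo10 lie in groups.

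Density was ranked among genes with at least 3 loci, and by construction this minimum puts short bodies first. Of all listed bodies under 20 kb, 32.1% held a locus, the lowest share of the length classes. Duoxa1, which encodes a maturation factor of a hydrogen-peroxide-making oxidase, led with 3 loci in 11.5 kb, or 26.0 per 100 kb. All lay between 64.6% and 73.1% of the way along. Iffo1, which encodes an intermediate filament family protein, had 4 loci in 16.5 kb, or 24.2 per 100 kb, with centres from 2.25 to 7.56 kb from the start. Pygm, which encodes the muscle glycogen phosphorylase, had 3 in 14.1 kb, or 21.3 per 100 kb. Best1, a chloride channel gene, reached 18.2, and Ehbp1l1 reached 15.8. Ampd3, which encodes an AMP deaminase, held 6 loci in 44.2 kb, or 13.6 per 100 kb, with no unpartnered peak in its body in either list. At Pygm, in contrast, 10 further gene-body peaks of the list without pyruvate had no partner, and none of the list with pyruvate.

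Some loci belonged to more than 1 gene. Of the 4035 loci, 3783 were listed in 1 gene and 252 in several, of which 188 joined genes on opposite strands, so that a locus in the first part of 1 gene can be in the last part of another. All 4 loci of Igf2r, which encodes the receptor that clears insulin-like growth factor 2, also lay in an unnamed gene on the opposite strand. Likewise, 2 of the 5 loci of Cd82, a tetraspanin gene known as a marker of muscle stem cells, lay in an unnamed antisense gene. The files cannot say which gene of such a pair a locus belongs to.

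Muscle genes were next described by 4 lists, for the sarcomere, for excitation and calcium, for the sarcolemma and adhesion, and for myogenic regulators. Of the 213 genes on them the files name 166, and 101 of these held a shared gene-body locus, or 60.8% (53.0 to 68.3), beside 36.9% of all genes named. They held 191 loci. Both shares include genes with no listed body, which could not hold a locus. A body was listed for 140 of the 166 muscle genes and for 5774 of all 7235. Among genes with a listed body, every length class showed a higher share for the muscle lists than for all genes. The shares were 52.9% against 32.1% under 20 kb, 65% against 40.2% at 20 to 50 kb and 85.7% against 50.9% at 50 to 100 kb. They were 77.8% against 57.0% at 100 to 200 kb, 79.2% against 65.7% at 200 to 500 kb and 85.7% against 66.2% over 500 kb. The muscle intervals, from 7 to 34 genes a class, were wide. Of 113 genes on lists for fibroblasts, neurons, liver and blood the files name 43, and 15 held a locus, or 34.9% (21.0 to 50.9). Taken singly, it was 9 of 21 for fibroblasts, or 42.9% (21.8 to 66.0), and 6 of 14 for neurons, or 42.9% (17.7 to 71.1). For liver and for blood it was 0 of 4 each.

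Among single markers, 3 of 9 for muscle held a locus (Ttn, Neb and Ryr1), as did 2 of 5 for fibroblasts (Col1a2 and Fbn1), 1 of 5 for neurons (Rbfox3) and 0 of 5 each for liver and blood. The other 6 muscle markers (Myog, Des, Ckm, Acta1, Chrna1 and Dmd) held none, and markers with their binding in a flank could not enter by the rule. A locus is not a measure of expression, so the part of other cells in the cultures was not tested.

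Sarcomere genes held loci in 25 of 45 genes named, or 55.6% (40.0 to 70.4), and most loci lay near the start of the gene. At Ttn, which encodes the giant spring protein titin, the locus lay 0.672 kb from the start, 0.241% of the way along the gene (chr2:76819758-76820107), and was 349 bases wide with pyruvate and 337 without. At Neb, which encodes the thin-filament ruler nebulin, it lay 3.52 kb from the start and was 264 and 239 bases wide. Myom2, which encodes an M-band protein, held 3 loci, all in its first 15.4 kb. Their widths were 242, 169 and 355 bases with pyruvate and 252, 317 and 375 without, so each was wider in the list without pyruvate. At Tnnt3, which encodes fast troponin T, the locus lay 0.401 kb from the start (193 and 224 bases), and an antisense predicted gene, Gm14492, was listed for it too.

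Some sarcomere genes held loci deep in the body. Cap2, which encodes an actin-binding protein that acts in thin-filament maturation, held 6 loci, 3 between 14.3% and 22.6% of its length and 3 between 74.0% and 86.5%. All 6 were wider with pyruvate, from 267 to 528 bases against 170 to 388 without. Tmod1, which encodes the tropomodulin that caps thin filaments, held 3 loci between 60.5% and 73.3%, and 1 of these was 801 bases wide with pyruvate and 287 without. The 3 loci of Synpo2 lay between 48.5% and 75.01%.

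Genes of excitation and calcium handling held loci in 20 of 43 genes named, or 46.5% (31.2 to 62.3), an interval that includes the 36.9% of all genes. At Ryr1, which encodes the calcium release channel of the sarcoplasmic reticulum, the locus lay 1.12 kb from the start (chr7:29908671-29909427) and was 756 bases wide with pyruvate and 319 without. At Cacna1s, which encodes the voltage sensor that opens that channel, it lay 14.0 kb from the start and was 575 and 325 bases wide. Musk, which encodes the receptor kinase of the neuromuscular synapse, held 2 loci, 0.955 and 2.94 kb from the start, with widths of 255 and 242 bases with pyruvate and 216 and 275 without. Jph2, which encodes the junctophilin that ties the surface membrane to the reticulum, held 5 loci in 61.8 kb, 4 of them beyond 53.3% of its length. Kcnn3, which encodes a calcium-activated potassium channel, also held 5, from 2.57 to 86.2 kb from its start.

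Genes of the sarcolemma and adhesion held loci in 27 of 36 genes named, or 75% (57.8 to 87.9). Sntb1, which encodes a syntrophin of the dystrophin complex, held 5 loci, from 40.5 to 204.6 kb from the start, all wider without pyruvate (231 to 605 bases) than with it (183 to 375). Utrn, which encodes the dystrophin relative utrophin, held 4, from 9.31% to 91.3% of its length. At Tmem8c, which encodes the fusion protein myomaker, the locus lay 2.36 kb from the start with widths of 362 bases with pyruvate and 352 without. At Cdh15 it lay 0.422 kb from the start, with 348 and 326 bases. At Dag1, whose locus spans the start, the peak was 421 bases with pyruvate and 160 without.

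Myogenic regulators held loci in 29 of 42 genes named, or 69.0% (52.9 to 82.4), the most loci of the 4 lists with 67. Tead1, which encodes a DNA-binding partner of the YAP co-activator, held 7 in 227 kb, in order along the gene 422, 256, 351, 248, 398, 396 and 473 bases wide with pyruvate and 275, 265, 329, 350, 279, 272 and 388 without. The first lay 17.7 kb from the start, and the last 2 lay beside each other at 90.0% and 90.7%. Of these, 5 were wider with pyruvate and 2 without. Runx1, which encodes a transcription factor of development and regeneration, held 5 loci, each wider without pyruvate (248, 341, 416, 276 and 578 bases) than with it (179, 187, 318, 213 and 312). Hdac4, which encodes a deacetylase that represses MEF2, held 5 from 8.25% to 93.1% of its length. Ccnd3, the gene of cyclin D3, held 4, each wider with pyruvate, and Rbfox1, a splicing regulator gene, held 5. At Mef2c, a partner of MyoD, the locus lay 100.7 kb from the start, with 188 bases with pyruvate and 294 without.

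By relative position, loci of muscle genes lay nearer the start than those of all genes outside the muscle lists, a comparison that was chosen after values were seen. Within 2 kb of the start the shares were close, at 8.29% of muscle combinations (16) and 7.77% of those outside the lists (320). In the 4 muscle lists, 85 of 193 combinations were in the first 25%, or 44.0% (36.9 to 51.4), beside 27.8% (26.5 to 29.2) in genes outside these lists and 28.5% in all genes. The first 10% held 20.2% (14.8 to 26.6) beside 12.1%, and the last 25% 14.5% (9.86 to 20.3) beside 23.2%. With loci within 2 kb of either end left out, the first 25% still held 40% (32.7 to 47.7) beside 23.5% (22.2 to 24.95). Loci of 1 gene are not independent, so each gene was also given 1 mean position. By it 48 of 101 muscle genes, or 47.5% (37.5 to 57.7), fell in the first 25%, beside 25.9% (24.3 to 27.7) of all genes. By length class the share of combinations in the first 25% was 66.7% of 18 under 20 kb, 66.7% of 21 at 20 to 50 kb and 51.2% of 41 at 50 to 100 kb. Genes outside the lists had 33.1%, 31.2% and 24.9% in these classes, below the muscle intervals. The muscle share was 34.8% (21.4 to 50.2) at 100 to 200 kb and 35.2% (22.7 to 49.4) at 200 to 500 kb. These intervals include the 27.1% and 24.4% outside the lists. Above 500 kb the order turned, with 23.1% of 13 beside 30.1%.

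By the first 25%, the sarcomere list had the highest share of the 4, with 27 of 42 combinations, or 64.3% (48.0 to 78.4), in 20 of its 25 genes with a locus. The sarcolemma list had 49.0% (34.4 to 63.7) and the excitation list 47.1% (29.8 to 64.9). Myogenic regulators had 26.5% (16.5 to 38.6), close to all genes. By the first 10% the order differed, with 29.4% (15.1 to 47.5) for excitation, 22.4% (11.8 to 36.6) for the sarcolemma, 19.05% (8.601 to 34.1) for the sarcomere and 14.7% (7.28 to 25.4) for regulators, and these intervals overlapped. Unpartnered peaks in the bodies of the same muscle lists held 29.8% (20.8 to 40.1) in the first 25% in the list with pyruvate and 31.4% (24.5 to 38.9) in the list without. Shared pairs wide in both lists held 13 of 25 of their muscle combinations there, or 52% (31.3 to 72.2), and 4 of 4 in the sarcomere list. Unpartnered peaks of the sarcomere list held 10 of 31 there with pyruvate, or 32.3% (16.7 to 51.4). Without pyruvate they held 5 of 11, or 45.5% (16.7 to 76.6). Both shares are lower than that of the shared sarcomere loci, and the intervals overlap it. Insulin and growth factor signalling genes had 44.1% (27.2 to 62.1), as high as the muscle lists together, and genes of pyruvate and the citrate cycle 40% (12.2 to 73.8). The lists of neither muscle nor another lineage together had 36.8% (26.7 to 47.8), an interval that overlaps that of the muscle lists. Fibroblast genes had 33.3% of 18 combinations there and neuron genes 30% of 10, with intervals of 13.3 to 59.0 and 6.67 to 65.2, and glycolysis genes 16.7% of 12 (2.09 to 48.4).

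**Figure D4:**
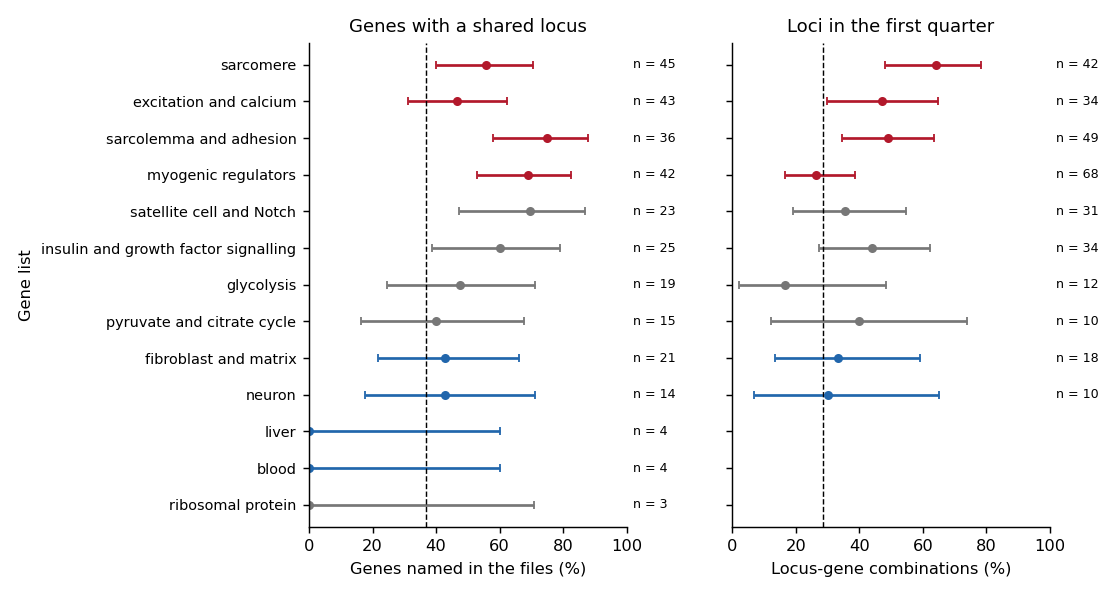
Left, the share of genes named in the files (percent, with n) that held a shared gene-body locus, for each of 13 gene lists; right, the share of their locus-gene combinations in the first 25% of the gene. Points are shares, bars are 95% exact binomial intervals, dashed lines are all genes (36.9% and 28.5%), red marks muscle lists and blue lists of other lineages; the sarcomere list is highest on the right, at 64.3%, and most intervals there overlap.

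Metabolic genes were described because pyruvate was the variable. Glycolysis genes held loci in 9 of 19 genes named, or 47.4% (24.4 to 71.1). Hk2, which encodes the muscle hexokinase, held 2 loci, 49.9% and 55.0% of the way along, 186 and 216 bases wide with pyruvate and 268 and 226 without. Genes of pyruvate and the citrate cycle held them in 6 of 15, or 40% (16.3 to 67.7). Both intervals include the 36.9% of all genes named. Pcx held 3, of which the first, at the start, was 268 and 371 bases wide, and the other 2 lay 37.5 and 38.2 kb inside. Cs, the citrate synthase gene, held 1 that was 291 bases wide in both lists. Me3, which encodes a mitochondrial malic enzyme, held 3 (334, 208 and 364 bases with pyruvate, 306, 294 and 411 without).

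Insulin and growth factor signalling genes held loci in 15 of 25 genes named, or 60% (38.7 to 78.9), an interval above the 36.9% of all genes, and of their 34 combinations 0 lay in the first 10% of the gene (upper bound 10.3%). Smad3, which encodes a mediator of TGF-beta and myostatin signals, held 6 loci, 1 of them 440 bases wide with pyruvate and 197 without and another 182 and 495 the other way. Rptor, which encodes the raptor subunit of mTORC1, also held 6, from 74.1 to 259.9 kb from the start. Satellite cell and Notch genes held loci in 16 of 23, or 69.6% (47.1 to 86.8), among them Notch1, Notch2 and Notch3, Pax7, Pax3 and the Notch effector gene Rbpj (522 bases with pyruvate and 370 without). Megf10, which encodes a receptor of satellite cells, held 6, the first 0.315 kb from the start. No ribosomal protein gene held a locus, of 3 named.

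Peak width over the loci differed little between the lists. The median was 257 bases with pyruvate (interquartile range 212 to 312) and 279 without (227 to 339). The median ratio, without over with, was 1.08 (1.07 to 1.10) and its interquartile range 0.887 to 1.30. Of the loci, 2432 were wider without pyruvate, 1580 with it and 23 equal. A width over 1.5-fold larger was found without pyruvate in 493 loci, where 12.4% of all shared pairs pass that mark, and with pyruvate in 283, where 6.98% do. By pairs, the members' shares were 12.4% and 7.40%, near those of all shared pairs. The median ratio of shared pairs outside gene regions was 1.11 (1.10 to 1.12), and that of pairs in flanks 1.04 (1.03 to 1.07). Width also moves with depth and fragment length, whose part was not tested.

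**Figure D5:**
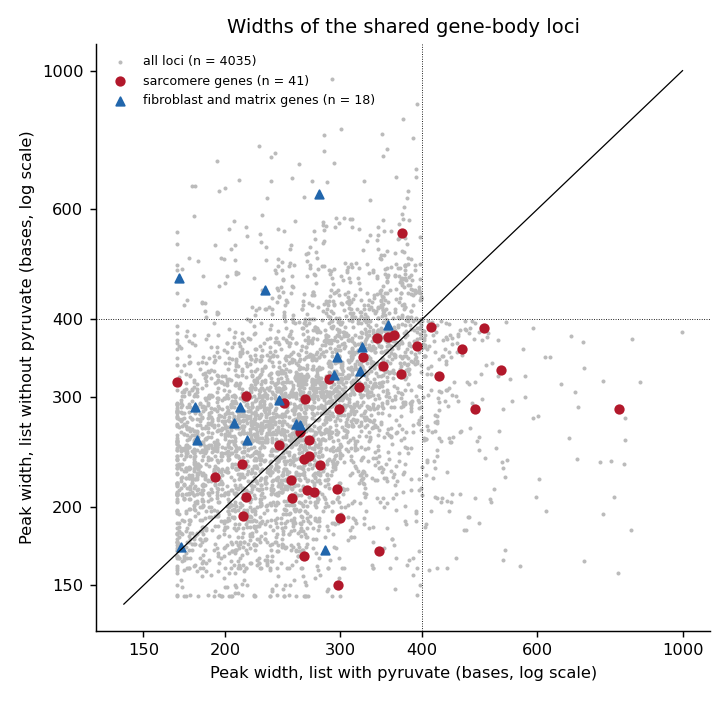
Peak width in the list without pyruvate (bases, log scale, vertical axis) against that in the list with pyruvate (bases, log scale, horizontal axis), 1 grey point per locus (n = 4035), with loci of sarcomere genes in red (n = 41) and of fibroblast and matrix genes as blue triangles (n = 18). The solid line is equal width and the dotted lines the 400-base limit; 27 of the 41 sarcomere loci lie below the solid line and 1 of the 18 fibroblast loci.

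The sarcomere list and the fibroblast and matrix list stood at opposite ends in which library had the wider peak, a comparison also chosen after values were seen. In every other list with loci, the interval of the share wider with pyruvate included the 39.2% of all loci. These shares ran from 30% (6.67 to 65.2) for neuron genes to 52.9% (35.1 to 70.2) for excitation genes, with 51.6% (33.1 to 69.8) for satellite cell and Notch genes. Of sarcomere loci, 27 of 41 were wider with pyruvate, or 65.9% (49.4 to 79.9), beside 39.2% of all loci, and the median ratio was 0.921 (0.818 to 1.02). Without Cap2, whose 6 loci were all wider with pyruvate, it was 21 of 35, or 60% (42.1 to 76.1). Over the 4 muscle lists, 100 of 191 were wider with pyruvate, or 52.4% (45.0 to 59.6). Of 18 loci in fibroblast and matrix genes only 1 was, at Thy1, or 5.56% (0.141 to 27.3), and the median ratio was 1.18 (1.06 to 1.41). These included Fbn1, which encodes fibrillin, with 206, 230 and 170 bases with pyruvate and 273, 446 and 466 without, and Col4a1 with 293, 242 and 278 bases against 326, 297 and 635. Col4a1 and Col4a2, which lie side by side and encode chains of basement membrane collagen, gave 7 of the 18.

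Body peaks of sarcomere genes were also more numerous with pyruvate than without, 75 against 56, where all gene bodies together had 6153 against 9562. Of them, 45 in each list had a partner, or 60.0% and 80.4%, beside 71.5% and 46.2% of all gene-body peaks. The other muscle lists had fewer body peaks with pyruvate than without. The counts were 60 against 70 for excitation and calcium, 77 against 113 for sarcolemma and adhesion, and 98 against 144 for myogenic regulators. The muscle lists together, sarcomere included, had 310 against 383. In fibroblast and matrix genes there were 23 body peaks with pyruvate and 39 without, the same direction as in all gene bodies. These are counts of 1 library each.

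The most unequal loci lay in genes outside the muscle lists. Among those with the largest ratio towards the list without pyruvate were loci at 2900011O08Rik (194 bases with and 718 without), Angpt1, the angiopoietin-1 gene (180 and 653), Cblb, a ubiquitin ligase gene (225 and 757), and Gm11570 (291 and 971). The 5 towards the list with pyruvate were at Zbtb7c (796 and 157), Phka2, a phosphorylase kinase subunit gene (834 and 184), Ssbp3 (707 and 164), Inppl1, a lipid phosphatase gene of insulin signalling (756 and 195), and Foxo6 (786 and 208). At Phka2 the locus lay 99.7% of the way along the gene. Ratios of single loci have no error estimate.

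The 400-base limit bounds the widths, since at least 1 peak of each pair had to be narrower. In 204 loci only the peak with pyruvate reached 400 bases, in 422 only the one without, and in 3409 neither. The members just inside it were at Gbf1 (399 and 399 bases, with and without pyruvate), Kif13a (398 and 401), Plcl1 (398 and 435), C130039O16Rik (465 and 398) and Fmnl3 (398 and 432). Pairs just outside were at an unnamed gene (526 and 400), Kif16b (400 and 404), Megf10 (401 and 433), Tbc1d1 (419 and 401) and Ston2 (401 and 406). The widest members, chosen after values were seen, were at Chd9 with pyruvate (999 bases, and 382 without) and at Gm11570 without.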

How the data were processed

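MyoD ChIP-seq was measured in 2 libraries, and the 2 inputs were not analysed here. Reads were processed with bcl2fastq 2.19, Bowtie2 2.1.0 and MACS2 2.1.1 on mm9, per the submitters' processing notes; the sources used here do not give the calling threshold, read filters, use of the inputs or origin of the gene models. Each deposited file pairs peaks with gene bodies and 2000-base flanks, per the file headers, as positions in bases. The deposited columns headed for fold enrichment (a ratio) and the column beside it hold no usable value, so depth and height are unknown.

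Rows (13076 and 20902) were reduced to distinct peaks. Overlapping peaks of both lists were joined into loci, and a locus position is the centre of its peaks, from the listed gene start by strand. Whether starts count from 0 or 1 is unknown. Muscle and other gene lists (13 lists, 503 genes), the members and the comparisons were chosen with earlier results of these data known. Named genes were the 12 with most loci, the 8 densest with at least 3 loci, up to 5 per list, the 5 most unequal loci each way and 5 on each side of the width limit; other genes named were chosen after their values were seen. A locus that this rule names is not reported here. RefSeq names (GRCm38.p6) matched 2368 of 2420 symbols, and 247 genes have no symbol. Genes were pooled by symbol for counts of genes and of loci per gene. Position shares count each listed gene ID, so a locus can enter more than once under the same symbol, as at Nrap and Zeb1.

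Alternatives were peak centres within 100 bases, 50% reciprocal overlap, a limit of 350 bases, no limit, loci in 1 gene only, genes over 500 kb left out and 2 kb at gene ends left out. Motif content and sequences of the loci were not analysed here, since no genome of mm9 was used. The code was tested on simulated data. The work used pandas 2.3.3, scipy 1.17.1, matplotlib 3.10.9 and numpy 2.4.6 under Python 3.11.15.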

Additional observations from a re-analysis of the deposited data

How the results depend on the processing

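Of 49 alternative values (7 settings for each of 7 results), 47 stayed within 1.5 times the main count or within the main interval. The other 2 came from leaving out loci within 2 kb of a gene start or end, which by construction removes loci near the start: the first 25% of the gene then held 24.3% in place of 28.5%, and the first 10% 7.38% in place of 12.5%. An even spread of what remained gives 22.9% and 7.36%. The number of loci ranged from 3657 to 4376, genes with 5 or more loci from 71 to 119 and the median width ratio from 1.07 to 1.08. No paired analysis was possible because each condition was 1 library and the labels give no replicate numbers. Unknown depth limits what an absent or narrow peak can show.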

Other observations

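By chromosome, the shared gene-body loci were most numerous on chromosome 2, with 333 of 4035 or 8.25%, where 7.58% of all peaks with pyruvate and 7.52% of those without lay. Chromosome 3 held 155 loci, or 3.84%, beside 4.99% and 5.48% of all peaks, and chromosome X held 47, or 1.16%, beside 1.22% and 1.64%.

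Gaps between neighbouring loci of a gene of 1 kb or less numbered 106, or 6.49% of 1634. In Duoxa1, which has 3 loci, the centres lay 7.45, 7.999 and 8.43 kb from the start, all within 1 kb of each other.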
